A study of Rattus norvegicus with 16 samples.

Results

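The genes described here encode the proteins of the cytosolic ribosome, measured in the L4/L5 dorsal root ganglia (DRG) of rats 7 days after spared nerve injury (SNI) or sham surgery. They were chosen by symbol: every probe set (Affy_ID) whose annotation lists 1 gene named Rpl or Rps followed by its number, or Rplp0, Rplp1, Rplp2 or Rpsa, with the Rps6 kinases left out. This gave 48 genes, of 14217 genes with a probe set of their own, from 55 of the 31042 probe sets tested, and each gene was represented by its probe set with the highest mean over the 16 arrays. A further 36 probe sets list a ribosomal protein gene beside other symbols and were not members. Adult male Sprague-Dawley rats were operated on at 2 months of age and young rats at postnatal day 10, so that young ganglia were collected at 17 days. In SNI the common peroneal and tibial branches of the sciatic nerve were tied and cut and the sural branch was spared, whereas in sham surgery the nerves were exposed only. The groups were adult sham, adult contralateral, adult SNI and young sham, with 3 arrays each, and young contralateral and young SNI, with 2 arrays each. The contralateral groups hold the ganglia of the uninjured side of rats with SNI. Each array held RNA pooled from 3 adult or 4 young rats, so a difference between arrays is a difference between pools. The whole ganglion was taken, with its neurons, glia, immune cells and vessels, and in such tissue fewer cells of a type and less RNA per cell cannot be told apart.

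The ribosome joins amino acids into protein in the order given by the messenger RNA. Its large subunit carries the peptide bond-forming centre and the exit tunnel for the new chain, and its small subunit reads the message. Each subunit is built on ribosomal RNA with its own set of proteins, named Rpl in the large and Rps in the small subunit, and most of these proteins are needed in equal number. The messages for them begin at a C within a run of pyrimidines, the terminal oligopyrimidine (TOP) tract, through which their translation follows mTOR signalling. In sensory neurons ribosomes are abundant in the cell body, where they make up the Nissl substance, and some are found in axons.

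The sequences around the annotated start sites were searched for this tract and for a factor motif. RefSeq promoters (build GRCr8, 250 bases before and 50 after each annotated start) were matched to 43 of the 48 genes. The next lines give the last 90 bases before the start and the first 30 of the transcript for a few genes. Rpl13a and Rpl35 are among the genes with larger differences between adult SNI and its controls. The rest are the stalk protein Rplp0, Rpl39, and the pair Rpl3 and Rpl3l, which differed in their pattern over the arrays. Capitals mark CTTTC on the gene's strand, searched from 40 bases before to 30 after the start, and CTTCCGG on either strand (CCGGAAG on the other).
Rpl13a, chr1:104748884-104749003, minus strand: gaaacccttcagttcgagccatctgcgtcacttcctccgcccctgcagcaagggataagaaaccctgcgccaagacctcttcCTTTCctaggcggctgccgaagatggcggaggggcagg
Rpl35, chr3:43165892-43166011, minus strand: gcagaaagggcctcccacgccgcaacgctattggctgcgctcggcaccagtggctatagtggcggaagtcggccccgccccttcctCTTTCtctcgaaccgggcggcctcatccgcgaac
Rplp0, chr12:46718361-46718480, minus strand: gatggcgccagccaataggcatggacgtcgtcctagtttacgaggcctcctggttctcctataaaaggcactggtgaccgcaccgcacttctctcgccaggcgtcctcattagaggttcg
Rpl39, chrX:121195867-121195986, minus strand: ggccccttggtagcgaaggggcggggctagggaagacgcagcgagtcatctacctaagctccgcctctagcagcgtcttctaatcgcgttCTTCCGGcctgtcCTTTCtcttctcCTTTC
Rpl3, chr7:113507961-113508080, minus strand: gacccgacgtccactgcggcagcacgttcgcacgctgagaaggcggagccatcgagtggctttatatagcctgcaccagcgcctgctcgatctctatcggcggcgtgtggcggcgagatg
Rpl3l, chr10:14258356-14258475, plus strand: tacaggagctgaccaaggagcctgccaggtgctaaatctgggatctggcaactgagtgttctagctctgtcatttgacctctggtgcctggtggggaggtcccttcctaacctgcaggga
CTTTC was found near the start in 20 of the 43 promoters (46.5%) and in 9.0% of all 33469 promoters in the table. CTTCCGG, the core bound by ETS factors, was found in 10 of the 43 (23.3%) and in 8.7% of all. A run of at least 8 pyrimidines lay within 20 bases of the start in 28 of the 43 (65.1%) against 15.5% of all promoters. These are matches of letters and were not tested as sites. Rplp0, Rpl3 and Rpl3l held neither CTTTC near the start nor CTTCCGG. Other genes with larger differences in adult SNI are not printed. Of these, Rpl12 held CTTTC near the start, and Rps15, Rps3a and Rpl24 did not.

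The 48 probe sets fell into a group of 38 with mean log2 values above 11 (26 genes of the large and 12 of the small subunit) and a group of 10 with lower signals. This split was made after the values were seen. All values are log2 signals after GC-RMA, which corrects the background of each probe and scales the arrays to each other. The signal of a probe set depends on its own sequences, so the levels of different genes are not compared here. The 38 genes moved together from array to array, also between pools of the same group. Their ranges over the 16 arrays were 0.60 to 1.32 on the log2 scale, with a median of 0.82, and their standard deviation within groups had a median of 0.24, beside 0.22 over all probe sets. As examples, Rplp0, which forms the base of the ribosomal stalk, had log2 values of 12.78, 12.80 and 13.38 in adult sham, 12.59, 13.16 and 12.83 in adult contralateral and 12.89, 13.33 and 13.40 in adult SNI. In young rats Rplp0 had 13.28, 13.37 and 13.01 in sham, 13.32 and 12.99 in contralateral and 13.27 and 12.79 in SNI. All of the groups of Rplp0 overlapped. Rps6, the small subunit protein that S6 kinases phosphorylate, had 13.51, 13.25 and 13.63 in adult sham, 13.15, 13.60 and 13.27 in adult contralateral and 13.50, 13.79 and 13.75 in adult SNI. Its young values were 13.87, 13.75 and 13.30 in sham, 13.72 and 13.39 in contralateral and 13.64 and 13.31 in SNI. The high and low arrays of Rps6 were thus much the same as those of Rplp0.

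**Figure D1:**
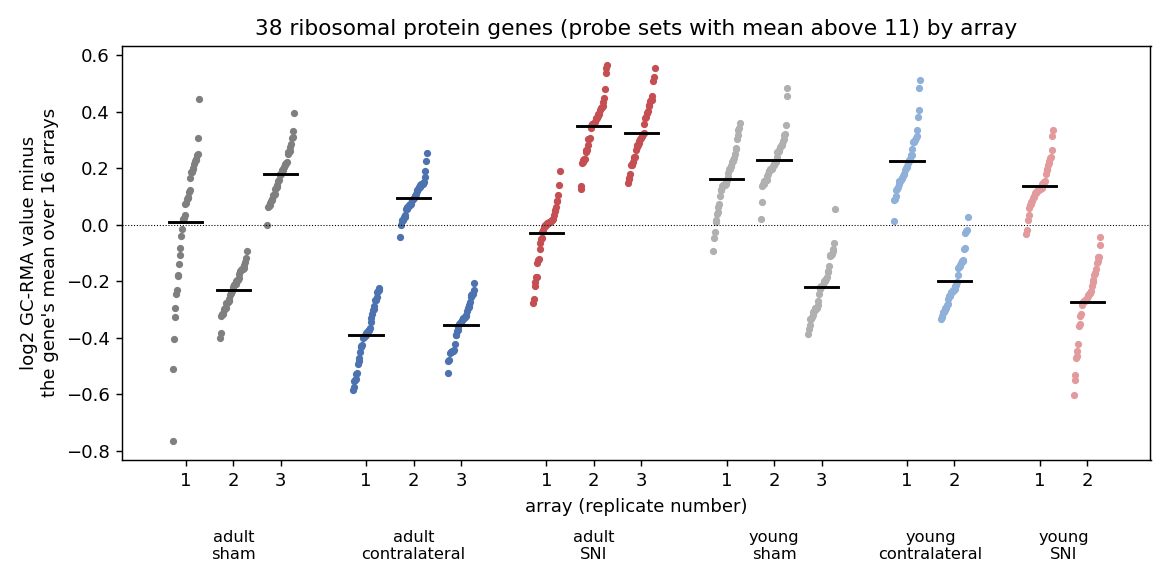
Each point is 1 of the 38 ribosomal protein genes with a mean above 11, plotted in each array as its log2 GC-RMA value minus its own mean over the 16 arrays (vertical axis), with arrays by group and replicate number on the horizontal axis and the array's mean as a bar. The genes move together, with array means from -0.39 in adult contralateral replicate 1 to 0.35 in adult SNI replicate 2, and arrays of 1 group lie far apart.

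Among the 38 genes, the Pearson correlation over the 16 arrays had a median of 0.88 for the 703 pairs of genes, with a range of 0.35 to 0.98. All pairs share the same arrays, hybridisation and scaling, so this is a description. The mean deviation of the 38 genes was 0.01, -0.23 and 0.18 in adult sham, -0.39, 0.09 and -0.36 in adult contralateral and -0.03, 0.35 and 0.32 in adult SNI. In young rats it was 0.16, 0.23 and -0.22 in sham, 0.22 and -0.20 in contralateral and 0.14 and -0.27 in SNI. The large and the small subunit gave nearly the same values, for example 0.35 and 0.34 in adult SNI replicate 2 and -0.38 and -0.41 in adult contralateral replicate 1. The pooled standard deviation within groups was 0.25.

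Other probe sets moved with the ribosomal protein genes in part of the arrays. The 9 probe sets of bacterial and phage RNA added at hybridisation, which hold no rat message, had their highest mean deviations in adult SNI replicates 2 and 3 (0.84 and 0.73), the same arrays in which the ribosomal protein genes were highest. The spike-in values in adult SNI replicate 1 and in the adult contralateral arrays were -0.16 and -0.36, 0.14 and -0.44. In adult sham the spike-ins had 0.16, -0.22 and -0.31, where the ribosomal protein genes had 0.01, -0.23 and 0.18. In young rats the spike-ins had 0.35, 0.27 and -0.31 in sham, 0.44 and -0.97 in contralateral and 0.12 and -0.30 in SNI. The mean of all 1962 probe sets with a mean above 11 also moved, from -0.39 in young SNI replicate 2 to 0.16 in adult sham replicate 3. Quantile normalization, which gives all arrays the same distribution of values, lowered the median correlation of the 703 pairs to 0.59 and left mean deviations of the 38 genes between -0.21 and 0.18. Neither the part of hybridisation nor that of scaling in the differences below was tested.

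**Figure D2:**
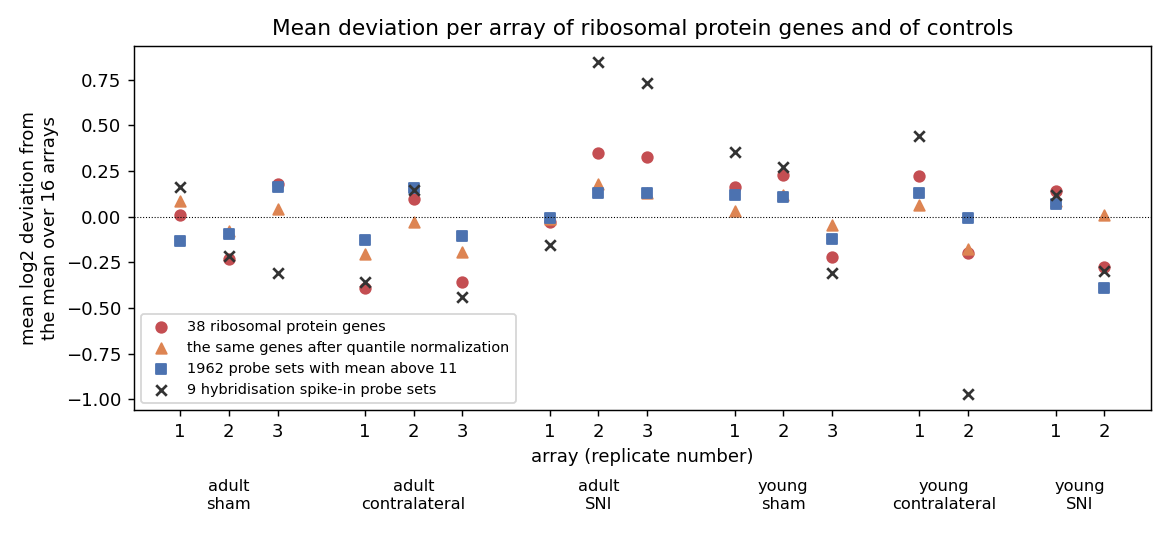
Mean log2 deviation from the mean over 16 arrays (vertical axis) for the 38 ribosomal protein genes as deposited and after quantile normalization, for the 1962 probe sets with a mean above 11 and for the 9 hybridisation spike-ins, by array (horizontal axis). The spike-ins and the ribosomal protein genes are both highest in adult SNI replicates 2 and 3, at 0.84 and 0.73 and at 0.35 and 0.32, and quantile normalization brings the latter to 0.18 and 0.13.

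In adult rats, ribosomal protein genes had somewhat higher values in SNI than in either control, but none passed the test. Against adult sham, 0 of the 48 genes were called at an adjusted p of 0.05 (limma, Benjamini-Hochberg over all probe sets), where 0.48% of all probe sets were. Against adult contralateral the count was also 0 of 48, with 1.03% of all probe sets called. The median log2 difference of the 48 genes was 0.20 against sham and 0.39 against contralateral, beside -0.02 and -0.04 over all probe sets. As single arrays were left out, the first median ran from 0.09 (without adult sham replicate 2) to 0.31 (without adult SNI replicate 1) and the second from 0.30 (without adult contralateral replicate 1) to 0.56 (without adult contralateral replicate 2). Both comparisons use the same 3 SNI arrays. At an unadjusted p under 0.05, 2 of the 48 genes differed from sham (7.33% of all probe sets did) and 14 differed from contralateral, all 14 higher in SNI (9.83% of all probe sets in either direction and 5.86% higher). This count of 14 depended on single arrays. It was 0 without adult contralateral replicate 3, 1 without adult SNI replicate 3, 2 without adult contralateral replicate 1 or without adult SNI replicate 2, and 27 and 35 without adult SNI replicate 1 and adult contralateral replicate 2.

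All 38 genes with means above 11 had positive differences in both comparisons, from 0.06 to 0.59 against sham and from 0.29 to 0.60 against contralateral. Over all probe sets 34.3% and 34.9% were above 0. Of the 1962 probe sets with such means, 66.2% were above 0 against sham (median 0.09) and 68.5% against contralateral (median 0.11). The 36 probe sets with several symbols, which were not members, had medians of 0.22 and 0.42. After quantile normalization the medians of the 48 genes were 0.05 and 0.21. For a single gene of the 38, the 95% confidence interval reached a median of 0.42 to each side. These intervals were not adjusted for the number of probe sets. The median differences of the same 38 genes were 0.22 against sham and 0.42 against contralateral.

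Rps29, a small zinc-binding protein of the small subunit, had the smallest p against sham. It had log2 values of 15.12, 15.16 and 15.17 in adult SNI, 14.75, 14.53 and 15.09 in adult sham and 14.70, 15.02 and 14.70 in adult contralateral. All SNI arrays lay above all arrays of both controls, narrowly so at sham replicate 3. The log2 difference was 0.36 against sham (SE 0.14, limma adjusted p = 0.538) and 0.34 against contralateral (SE 0.14, adjusted p = 0.423). It was the only member of the 48 whose SNI arrays all exceeded the sham arrays, where 4.17% of all probe sets did so.

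Against contralateral, 3 members (Rpl7, Rpl39 and Rps29) had all SNI arrays above all control arrays, beside 8.24% of all probe sets. Rpl7, a large subunit protein, had 13.41, 13.75 and 13.65 in adult SNI, 13.03, 13.34 and 12.95 in contralateral and 12.76, 13.08 and 13.58 in sham. Its difference was 0.50 against contralateral (SE 0.23, limma adjusted p = 0.524) and 0.46 against sham (SE 0.23, adjusted p = 0.768). A second probe set of Rpl7, with a mean of 6.64, went the other way, by -0.51 and -0.66. Rpl39, a very small protein that lines the exit tunnel, had 5.79, 5.73 and 6.09 in adult SNI, 5.21, 5.52 and 5.24 in contralateral and 5.62, 5.21 and 5.86 in sham. Its difference was 0.55 against contralateral (SE 0.23, limma adjusted p = 0.436).

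The smallest adjusted p of any member in these comparisons was 0.282, for Rps3 against contralateral. Rps3, which sits where the message enters the small subunit, had 13.04, 13.38 and 13.32 in adult SNI and 12.61, 13.04 and 12.55 in contralateral, so that SNI replicate 1 equalled contralateral replicate 2. Its log2 difference was 0.51 (SE 0.17, limma). Rpl12, a protein of the stalk base, had the largest difference from contralateral, with 12.75, 13.12 and 13.18 in adult SNI and 12.19, 12.77 and 12.29 in contralateral (0.60, SE 0.23, limma adjusted p = 0.374). Rpl13a, a large subunit protein that also takes part in translational silencing in macrophages, had the largest difference from sham, with 14.17, 14.64 and 14.54 in SNI and 13.32, 13.79 and 14.48 in sham (0.59, SE 0.33, adjusted p = 0.820). Sham replicate 3 lay within the SNI values. Rps3a, Rpl24 and Rpl35 differed from sham by 0.44, 0.36 and 0.32. Their SE were 0.24, 0.25 and 0.26 (limma adjusted p = 0.818, 0.887 and 0.951). At the low end, Rpl7a and Rps23 differed from sham by 0.07 and 0.06.

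**Figure D3:**
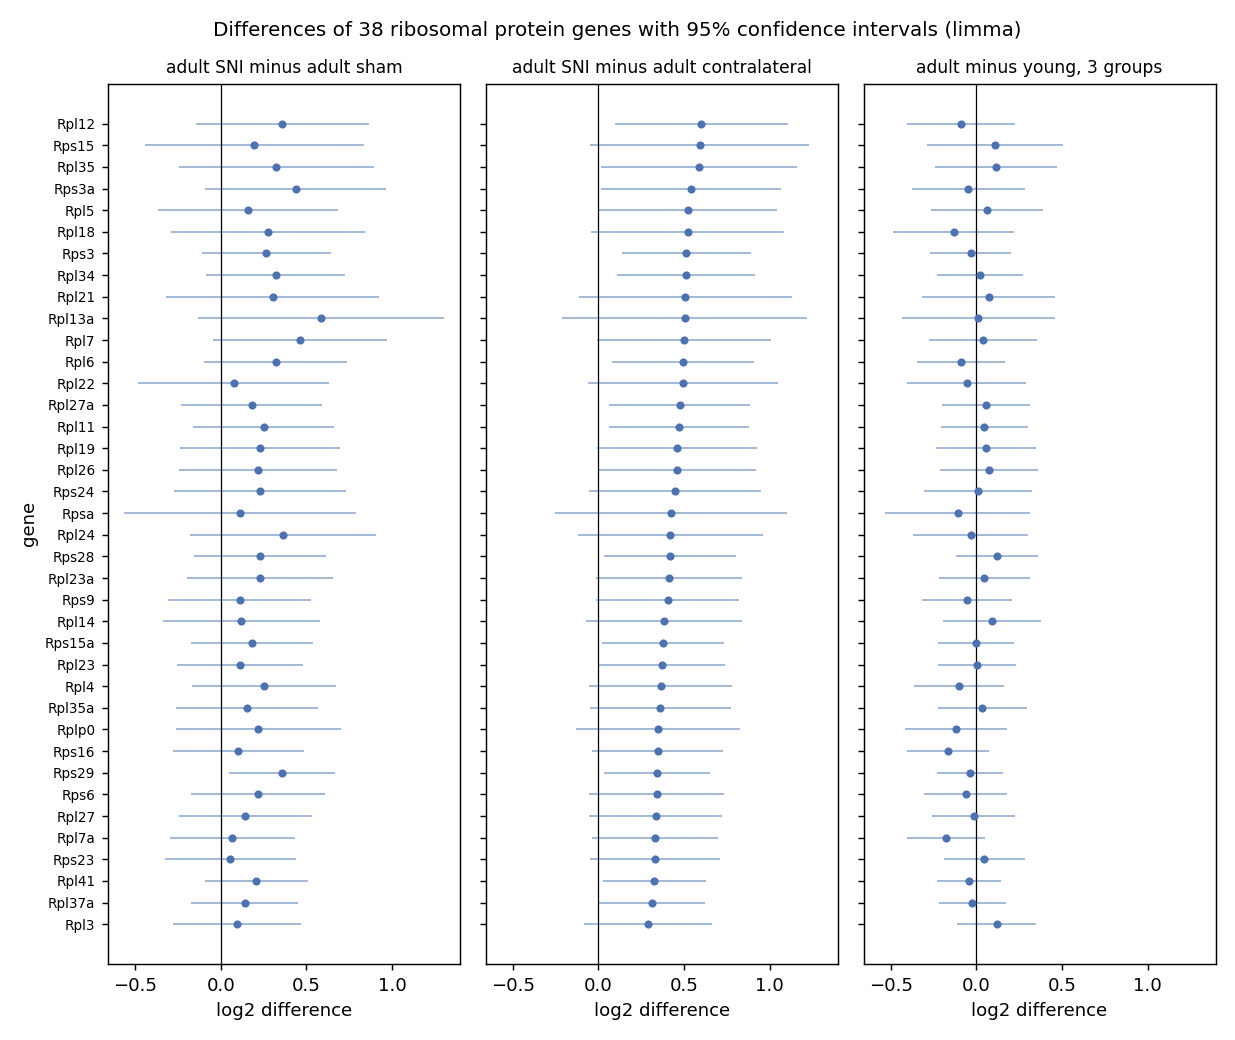
Log2 difference (horizontal axes) of each of the 38 ribosomal protein genes with a mean above 11 (vertical axis, ordered by the middle panel) in 3 comparisons, as points with 95% confidence intervals from limma. Differences lie between 0.06 and 0.59 against sham and between 0.29 and 0.60 against contralateral, most intervals include 0, and the age differences lie on either side of 0.

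The adult contralateral ganglia came from rats of the SNI group, and arrays of the same number deviated together, so the differences were also read within pairs. The median of the 38 genes with means above 11 was 0.36 in pair 1, 0.25 in pair 2 and 0.65 in pair 3, and every gene was above 0 in every pair. Over all probe sets, 16.5% were above 0 in all 3 pairs, and of the 1962 with means above 11, 38.4% were. The span within a pair ran from 0.24 (Rps23) to 0.56 (Rpl12) in pair 1, from 0.10 (Rpl3) to 0.44 (Rps15) in pair 2 and from 0.41 (Rpl41) to 0.98 (Rps15) in pair 3. After quantile normalization all 38 stayed above 0 in the 3 pairs, with medians of 0.19, 0.22 and 0.29. These 6 arrays alone were also fitted with the pair as a block, an alternative chosen after seeing the data. In that fit 36 of the 48 members had an unadjusted p under 0.05, all higher in SNI, beside 18.8% of all probe sets in either direction. The genes moved together over the arrays, so these are not separate results. None was called, with a smallest limma adjusted p of 0.101 where 1.48% of all probe sets were called. With the replicate number as a block in the fit of all arrays, 8 members had an unadjusted p under 0.05, against 14 without the block.

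Between the control groups of adult rats the 48 genes had a median of -0.19 in contralateral against sham, and 36 of the 38 with means above 11 were below 0, while 43.7% of the 1962 probe sets with such means were above it. None was called, as was the case for all probe sets (0%). At an unadjusted p under 0.05 the count was 0 of 48 and 2.01% of all probe sets. Rps4y2, a homologue of the small subunit protein S4, was the only member with all sham arrays (3.73, 3.72 and 3.61) above all contralateral arrays (3.56, 3.51 and 3.5), as in 1.99% of all probe sets.

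In young rats no ribosomal protein gene passed the test after SNI, and the differences were small beside their errors. None of the 48 was called against young sham, where 0.0161% of all probe sets were, or against young contralateral, with 0.00966%, and the count at an unadjusted p under 0.05 was 0 in both (5.91% and 5.94% of all probe sets). The median log2 difference was -0.10 against sham and -0.07 against contralateral, where the 95% confidence interval of a single gene with a mean above 11 reached a median of 0.47 and 0.51 to each side. Rps29 had 15.05 and 14.86 in young SNI, 15.07, 15.01 and 14.73 in young sham and 15.02 and 14.91 in young contralateral. Rpl13a had 14.32 and 13.62 in young SNI, 14.10, 14.54 and 13.79 in young sham and 14.42 and 13.80 in young contralateral. For both genes the SNI values lay among the controls or, in Rpl13a replicate 2, just under them.

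These medians rested on single arrays. Young SNI replicate 2 held messages of central nervous tissue, with a mean of 9.83 over 10 genes against 2.52 to 3.21 in all other arrays. The oligodendrocyte gene Mog was 11.58 there and at most 2.46 elsewhere. The astrocyte gene Aqp4 was 13.33 there but also 7.77 and 6.50 in the young contralateral arrays. Slc1a2, another of the 10 genes, did not rise in young SNI replicate 2 (2.57). The 38 genes had a mean deviation of -0.27 in this array and 0.14 in young SNI replicate 1. The median against young sham became 0.08 when this array was left out and -0.27 when the other was. Against young contralateral it ran from -0.26 without contralateral replicate 2 to 0.12 without contralateral replicate 1. Between young contralateral and young sham the median of the 48 genes was -0.05, 0 genes were called (0% of all probe sets) and 1 gene, Rpl3l, had an unadjusted p under 0.05, as had 2.25% of all probe sets.

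The response to SNI did not differ detectably between ages in any ribosomal protein gene. The difference (adult SNI minus adult sham, less young SNI minus young sham) had a median of 0.30 over the 48 genes, 0 were called and 0.0773% of all probe sets were. All 38 genes with means above 11 were above 0 (0.17 to 0.76), as were 84.5% of the 1962 probe sets with such means, whose median was 0.31. The largest value was that of Rpl13a (0.76, 95% confidence interval -0.31 to 1.83, limma adjusted p = 0.841). The median was 0.11 without young SNI replicate 2 and 0.48 without the other young SNI array, 0.05 after quantile normalization and -0.001 when each array was centred on the 1962 probe sets with means above 11, a centring chosen after seeing the data.

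With age, no ribosomal protein gene was called although many other genes were. Over the 3 groups, 10.6% of all probe sets passed the test between adult and young rats, and 0 of the 48 members did. The 38 genes with means above 11 divided evenly, 19 above and 19 below 0, within -0.18 and 0.12 and with a median of 0.001 on the log2 scale, while 56.7% of the 1962 probe sets with such means were above 0. The confidence interval of a single gene reached a median of 0.26 to each side, and over the 38 genes the bounds ran from -0.53 (Rpsa) to 0.51 (Rps15). Rpl7a was lowest at -0.18 (SE 0.10, limma adjusted p = 0.348), followed by Rps16 at -0.16 (SE 0.11, adjusted p = 0.426). Rps16, a protein of the small subunit head, had 13.76, 13.19 and 13.68 in adult sham, 13.00, 13.60 and 13.30 in adult contralateral and 13.45, 13.70 and 13.79 in adult SNI, and young values of 13.91, 13.77 and 13.63, of 13.70 and 13.60 and of 13.66 and 13.46. The ages overlapped. Rps28 and Rpl3 were the highest of the 38, both at 0.12. A second probe set of Rpl3, with a mean of 7.90, gave 0.36.

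Within single groups, the age difference in sham had a median of -0.02 with 0 of 48 called (0.622% of all probe sets). In contralateral ganglia the median was -0.22 with 0 called (0.177%), and in SNI it was 0.24 with 0 called (2.64%). These opposite signs go with the array means given above, low in adult contralateral replicates 1 and 3 and high in adult SNI replicates 2 and 3. The contralateral median was -0.40 without young contralateral replicate 2 and 0.01 without replicate 1, and the SNI median was 0.06 and 0.43 without the second and the first young SNI array. Adult rats were male, and of the young pools 5 held Xist (9.77 to 12.05) and 2 did not exceed 2.36, as in the adult arrays (2.32 to 2.57), so that age and sex cannot be fully told apart.

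Some genes of the mitochondrial ribosome rose with age. Its proteins (Mrpl and Mrps genes) serve a separate ribosome that makes a small set of respiratory chain subunits. Of 73 measured, 11 were called higher in adults and 0 lower, beside 5.55% of all probe sets higher, and the others did not pass. The median difference of the 73 genes was 0.21, with 60 above 0. Mrpl55 had adult values from 9.63 to 10.13 (median 9.90) and young values from 9.10 to 9.62 (median 9.44), with no overlap. Its difference was 0.49 (SE 0.08, limma adjusted p = 0.00370). Mrps33 (0.42, SE 0.07, adjusted p = 0.00557), Mrpl39 (0.49, SE 0.09, adjusted p = 0.00563) and Mrpl32 (0.60, SE 0.11, adjusted p = 0.00760) also rose with age. Mrps33 and Mrpl39 did not overlap between the ages, while Mrpl32 did. The 2 lists were not tested against each other. The median of the mitochondrial list was 0.10 without young SNI replicate 2, and the count called was 32 without young SNI replicate 1. It fell to 5 without young contralateral replicate 1, to 6 without adult SNI replicate 2, adult contralateral replicate 2 or young contralateral replicate 2, and to 7 without young SNI replicate 2 or young sham replicate 3. The calls of the 4 genes named were not lost in any alternative setting tried. In adult SNI this list had medians of -0.11 against sham and 0.02 against contralateral, with 0 called.

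**Figure D4:**
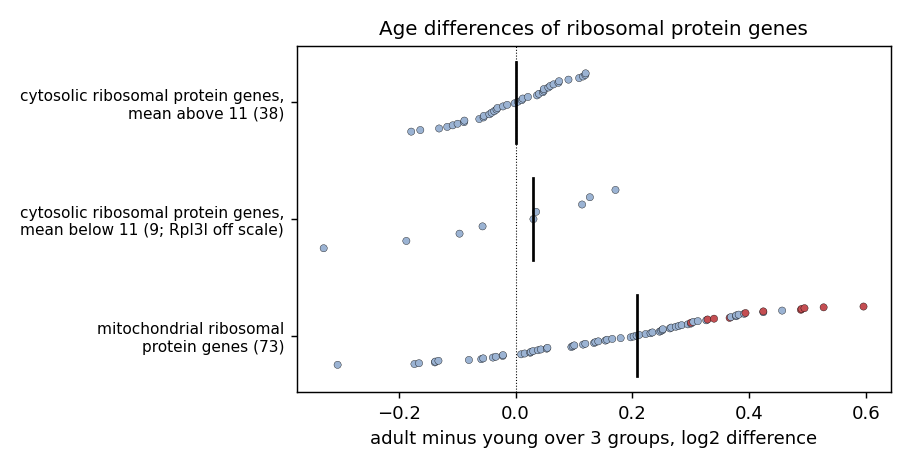
Log2 difference of adult minus young rats over 3 groups (horizontal axis) for cytosolic ribosomal protein genes with means above and below 11 and for 73 mitochondrial ribosomal protein genes (vertical axis); each point is a gene, red points passed the adjusted p of 0.05, and bars are medians of the points shown. Rpl3l, at -1.92, is off scale. The cytosolic genes with means above 11 lie around 0 and the mitochondrial genes mostly above it, with a median of 0.21.

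Of the 10 genes with lower signals, 6 are paralogs of a usual ribosomal protein, namely Rpl3l, Rpl7l1, Rpl26l1, Rpl39l1, Rps27l and Rps4y2. The other four, Rpl28, Rpl30, Rpl39 and Rps13, are core proteins whose probe sets gave signals between 2.37 and 6.13. Low signal of a probe set does not show that the gene is silent. The probe sets of Rpl30, Rps13, Rpl26l1, Rpl39l1 and Rps4y2 did not reach a log2 value of 4 in any array, so changes there are near background. Rpl39l1 had the smallest adjusted p for age (0.13, SE 0.05, limma adjusted p = 0.141), with values from 2.74 to 3.15. Rpl26l1 was 3.00 in adult sham replicate 1 and 2.32 to 2.54 elsewhere, and its difference of -0.28 between SNI and sham (SE 0.12, adjusted p = 0.603) rested on that array. Its partner Rpl26, which lies at the exit tunnel, ran from 13.61 to 14.45.

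Rps27l, a paralog of Rps27 and a target of p53, varied widely, with a standard deviation within groups of 1.01 where the 38 genes with means above 11 had at most 0.42. It had 4.88, 7.75 and 6.32 in adult sham, 6.43, 7.59 and 5.51 in adult contralateral and 6.18, 6.36 and 7.07 in adult SNI. In young rats it had 6.36, 7.76 and 6.25 in sham, 7.12 and 6.62 in contralateral and 7.66 and 5.72 in SNI. Groups overlapped throughout, and the difference of adult SNI from sham was 0.22 (SE 0.78, limma adjusted p = 1). Rpl7l1, a paralog of Rpl7 with a role in ribosome assembly, stayed between 8.79 and 9.41 in all arrays.

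Rpl3l, the paralog of Rpl3 that replaces it in skeletal muscle and heart, stood apart. It had log2 values of 4.12, 2.58 and 6.75 in adult sham, 2.63, 2.58 and 2.65 in adult contralateral and 2.55, 2.45 and 2.56 in adult SNI. In young rats it had 2.47, 5.6 and 2.60 in sham, 9.0 and 5.27 in contralateral and 6.80 and 2.56 in SNI. In 6 arrays it was above 4, and in the other 10 it was at most 2.65. The differences between groups were large but so was their error, with -1.92 for age (SE 0.85, limma adjusted p = 0.193) and -4.52 between adult and young contralateral (SE 1.52, adjusted p = 0.320). Rpl3, the usual protein near the peptide bond-forming centre, ran from 13.73 to 14.36 in the same arrays.

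Skeletal muscle genes other than Myh1 largely followed the same arrays as Rpl3l. Myh1, 1 of the 9 markers, stayed between 11.02 and 12.27 in all arrays. The mean of 9 measured markers, among them Acta1, Ckm and Tnnt3, was highest in young contralateral replicate 1 (13.3), where Rpl3l was 9.0. The next were adult sham replicate 3 at 12.7, young SNI replicate 1 at 11.8, young contralateral replicate 2 at 11.7 and young sham replicate 2 at 11.1, and these 4 arrays held Rpl3l at 6.75, 6.80, 5.27 and 5.6. Adult contralateral replicate 3, at 10.2, had Rpl3l at 2.65 and adult sham replicate 1, at 10.1, had it at 4.12. The other 9 arrays had muscle means from 4.75 to 9.13 and Rpl3l at or below 2.63. The part of muscle RNA in the Rpl3l values was not tested.

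**Figure D5:**
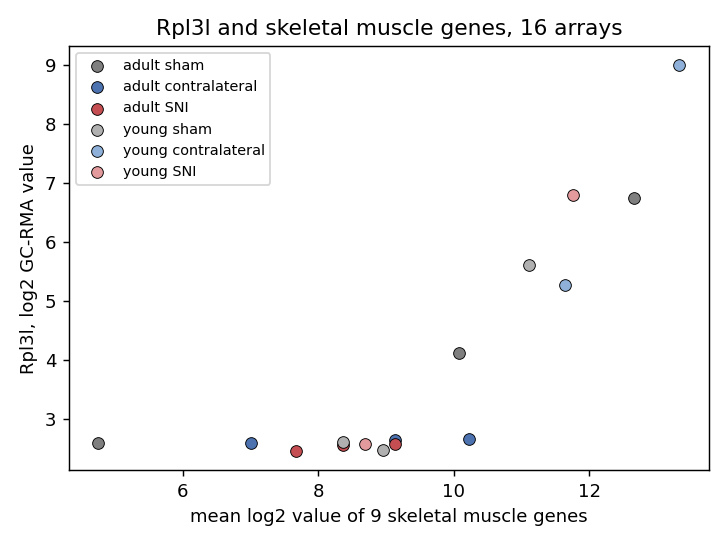
Log2 GC-RMA value of Rpl3l (vertical axis) against the mean log2 value of 9 skeletal muscle genes (horizontal axis) in each of the 16 arrays, coloured by group. Rpl3l rises above 4 in 6 arrays, those with muscle means of 10.1 and 11.1 to 13.3, and stays at or below 2.65 in the other 10.

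Other genes of translation and ribosome supply gave no call in adult SNI. Of 9 elongation and associated factors measured, 8 were above 0 against each control, with medians of 0.28 and 0.45. The medians of 26 initiation factors were 0.13 and 0.21, those of 39 ribosome biogenesis genes 0.04 and 0.15, those of 22 genes of mTOR and S6 kinase signalling 0.06 and -0.07, and those of 9 Myc family genes -0.003 and 0.14. No gene of these lists passed the test against sham or contralateral.

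With age a few of these genes passed, in lists with medians of 0.07 (biogenesis), -0.01 (initiation), 0.07 (mTOR) and -0.03 (Myc family). Of the 39 biogenesis genes, 4 were higher in adults and 1 lower, and of the 26 initiation factors 2 were higher and 1 lower. These shares are near the 10.6% of all probe sets called in either direction. Sbds, which helps release a block on the new large subunit, had adult values from 10.61 to 11.03 (median 10.81) and young values from 10.14 to 10.59 (median 10.21), without overlap. The difference was 0.53 (SE 0.07, limma adjusted p = 0.00124). Rrn3, the factor that brings RNA polymerase I to ribosomal DNA, was 0.57 higher (SE 0.09, adjusted p = 0.00401), Wdr12 0.64 (SE 0.15, adjusted p = 0.0173) and Nhp2 0.34 (SE 0.08, adjusted p = 0.0213). Bop1, a partner of Wdr12 in large subunit assembly, was lower, at -0.22 (SE 0.06, adjusted p = 0.0423), but this call was lost in 21 of 25 alternative settings, with adjusted p up to 0.241. Removal of any array but adult sham replicate 3, adult SNI replicate 2 or young sham replicate 3 ended it, as did the replicate block (adjusted p = 0.0690). Nhp2 lost its call without either young contralateral array or young SNI replicate 2, with adjusted p up to 0.0575.

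Among the initiation factors Eif6, which keeps large subunits apart from small ones until Sbds acts, rose by 0.50 (SE 0.12, limma adjusted p = 0.0257) and Eif2b2 by 0.60 (SE 0.17, adjusted p = 0.0462). Eif1ax, a factor of start codon choice, was lower in adults, at -0.48 (SE 0.12, adjusted p = 0.0292), with adult values of 11.30 to 12.36 and young values of 12.42 to 12.56. The calls of these 3 factors were fragile. Eif2b2 lost its call (adjusted p up to 0.109) on removal of any of 13 arrays, all but adult SNI replicate 1, young sham replicate 1 and young SNI replicate 1. Eif6 lost it (adjusted p up to 0.0724) without adult contralateral replicate 2, adult SNI replicate 2, young sham replicate 3, either young contralateral array or young SNI replicate 2, and Eif1ax (adjusted p up to 0.0707) without these or without adult contralateral replicate 1. Akt1s1, an inhibitory subunit of the mTOR complex, rose by 0.53 (SE 0.12, adjusted p = 0.0167). Mycn, a transcription factor of growing neural cells that drives ribosomal genes, was lower in adults, at -0.92 (SE 0.20, adjusted p = 0.0148), with values of 4.21 to 4.86 against 4.89 to 6.11.

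Marker genes of other cell types also differed between the groups. The mean of 15 sensory neuron markers was 12.4 to 12.8 in all arrays but young SNI replicate 2, where it was 11.4. The mean of 12 macrophage markers was 7.23 to 8.10 in adult SNI against 6.03 to 6.72 in adult sham and 5.51 to 5.79 in adult contralateral. Against contralateral 7 of the 12 were called higher, beside 1.03% of all probe sets in either direction. Against sham all 12 were above 0 (median 1.465) and 0 were called, beside 0.48% of all probe sets. The 8 fibroblast markers had medians of 0.49 against sham and 0.88 against contralateral in adult SNI, with 7 and 8 of them above 0 and 0 called. Their mean was 11.4, 11.8 and 12.1 in the SNI arrays and 11.1, 10.6 and 12.3 in adult sham. In adult contralateral it was 10.2, 10.9 and 10.9. In the same arrays the mean deviation of the 38 ribosomal protein genes was -0.03, 0.35 and 0.32 in SNI and 0.01, -0.23 and 0.18 in sham. In contralateral it was -0.39, 0.09 and -0.36. With age the fibroblast median was -0.81, and 4 of the 8 were called lower in adults, where 10.6% of all probe sets were called in either direction. The median was -0.46 for 9 markers of myelinating Schwann cells (3 called lower, 1 higher), -0.48 for 8 of satellite glia (2 lower) and -0.19 for 16 cell cycle genes (5 lower). These fits include young SNI replicate 2, with its central nervous messages. Of the glial markers called lower, Mag, Gjb1, Glul and Sox10 had their highest values in that array (12.22, 8.83, 12.94 and 11.28), and Egr2 did not (10.51). The medians without that array are not given here. The part of any of these cell types in the ribosomal protein values was not tested.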

How the data were processed

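Biotin-labelled RNA copies (cRNA) made from total RNA of pooled L4/L5 DRG were hybridised to Affymetrix rat genome arrays, of which 16 are used here. The authors normalised the arrays by GC-RMA, a model of probe background and array effects, and deposited log2 values with 2 decimals. They had removed 2 young arrays as outliers. Versions of the authors' GC-RMA and limma were not found in the sources used here. No reads were counted, so the number of arrays sets the precision.

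The 31042 probe sets left after removal of 57 controls were fitted together in limma 3.58.1 (R 4.3.3), with 1 mean for each of the 6 groups and empirical Bayes variances (10 residual and 1.24 prior degrees of freedom). Benjamini-Hochberg adjustment was made within each of 11 comparisons, at a threshold of 0.05. A symbol of 1 gene was listed for 20826 probe sets, several for 436 and none for 9780. Members, gene lists, comparisons and alternatives were chosen with earlier results of these data known. Genes were named where they were called, up to 10 members a comparison and up to 4 genes a pathway list by p. They were also named where they had the 8 largest differences with age or between adult SNI and sham. Rpl18 met this rule as well, but its values are not described. Paralogs, their partners, Rplp0, Rpsa and Rps6 were named too. Rps3, Rps15, Rps23, Rps28, Rpl41, Bop1 and others that end a range or a count were named after their values were seen. Same-numbered adult SNI and contralateral arrays deviated together (correlations of deviations from group means 0.45, 0.45 and 0.36), so that these numbers were taken to pair them, which the labels do not state; the 2 young pairs of this kind gave 0.15 each and were not taken as paired, and pairs with sham ran from -0.51 to 0.20. The fit was tested on simulated data. Python 3.11.15 with pandas 2.3.3 and matplotlib 3.10.9 read the promoters and drew the figures.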

Additional observations from a re-analysis of the deposited data

How the results depend on the processing

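The fit was repeated with a separate model per age, a variance trend with intensity, a filter on low signal (log2 above 4 in 2 or more arrays, which kept 43 of the 48 genes), array weights, quantile normalization, median centring, the replicate number as a block, the mean of all probe sets of a gene, dropping probe sets shared between transcripts, and leaving out each array in turn. Added after seeing the data were centring on the 1962 probe sets with means above 11, quantile normalization with the replicate block, and the adult SNI and contralateral arrays alone with the block. The count of ribosomal protein genes called was 0 in 292 of the 293 counts made so, the replicate block included. The exception was 1 gene with age, Rpl39l1, under quantile normalization with the replicate block. The median difference in response between ages was 0.048 under quantile normalization and -0.00121 under centring on the 1962 probe sets, against 0.30 as reported, and the cause was not tested. The other medians moved by less than 0.25, the spread between arrays, in those settings. That bound is larger than most of the medians themselves, so it does not show that they were stable. The medians of adult SNI against sham and against contralateral fell under quantile normalization, as given above. As arrays were left out in turn, the medians ran from 0.09 to 0.31 for adult SNI against sham, 0.30 to 0.56 against contralateral, -0.34 to -0.12 for adult contralateral against sham, -0.27 to 0.08 for young SNI against sham, -0.26 to 0.12 against contralateral and 0.11 to 0.48 for the difference in response. With age over 3 groups they ran from -0.06 to 0.06. The count of mitochondrial ribosomal proteins called with age was 20 under quantile normalization and 22 under median centring, against 11. Mycn lost its call with age (adjusted p = 0.0534) under quantile normalization with the replicate block. Signals near background limit Rpl30, Rps13, Rpl26l1, Rpl39l1 and Rps4y2, and the number of pools limits the rest.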
